A study of Mus musculus with 12 samples.

Results

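Messenger RNA of 10 genes of the focal adhesion kinase, Src and CAS signalling module was followed in mouse embryonic fibroblasts: Ptk2, Ptk2b, Src, Fyn, Yes1, Csk, Bcar1, Nedd9, Cass4 and Pxn. Probes were assigned by the RefSeq transcript that the array files give for them, and every probe was kept apart. Of the 10 genes, 9 had a probe, with 14 probes in all among 41174 on the array; Cass4 had none under its RefSeq identifiers and was not analysed here. All 14 probes were among the 25931 that passed the filter on dim signals. The arrays held RNA of FAK knockout (KO) cells and of FAK rescue cells, which are KO-derived cells of clone DA2 given FAK back. Each line was plated densely, with 8200000 cells in a 10 cm dish, or sparsely, with 410000, and RNA came from cells collected 24 h later. Dense KO, sparse KO, dense rescue and sparse rescue groups held 3 cultures apiece, and each of the 3 experimental days gave 1 culture to every group. Both lines stem from FAK-deficient fibroblasts and grew in the same serum-supplemented base medium, but only the rescue medium held hygromycin B and non-essential amino acids. As the rescue line is 1 clone, the effect of FAK cannot be told apart from that of the clone or the medium.

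FAK, the product of Ptk2, and its paralog Pyk2, the product of Ptk2b, are cytoplasmic tyrosine kinases. In fibroblasts, FAK is recruited to integrin adhesions, phosphorylates itself and thereby binds Src family kinases. The FAK-Src pair phosphorylates the scaffolds p130Cas (Bcar1) and paxillin (Pxn), which then bring in Crk and other adaptors that act on Rac and on the turnover of adhesions. Csk phosphorylates the tail tyrosine of Src kinases and holds them inactive.

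A level is given below as log2 of the processed signal minus log2 of the 75th percentile of its array, so that 0 is the 75th percentile and 1 unit is a doubling. Levels are not compared between probes, since probes differ in brightness. That percentile lay between 294 and 1594 signal units, and 23152 to 26183 probes per array were well above background. In KO cultures the percentile was 294, 688 and 460 in sparse, against 1077, 1594 and 951 in dense cells (days 1 to 3). In rescue cultures the percentile was 732, 828 and 428 in sparse, against 1174, 613 and 954 in dense cells. No spot was saturated, and the number of arrays limits the precision. In bulk RNA, fewer cells of a kind and less RNA per cell cannot be told apart. Of 10 fibroblast markers, 8 or 9 were detected on all arrays of each group, while Thy1 and Lum were missing from some groups. The list summed to 329 to 387 times the 75th percentile in KO cultures, against 778 to 1183 in rescue cultures. Endothelial markers summed to at most 0.246 times the 75th percentile in any culture, with Pecam1 detected in no group. The summed level of epithelial markers moved with the line, but single markers went both ways. Cdh1 was undetected in both KO groups and detected on all arrays of dense rescue cells. Epcam was undetected in both rescue groups and in dense KO cells. Of 5 such markers, Cldn4 was detected in no group, but the list, which includes Krt8 and Krt18, summed to 74.3 to 135 times the 75th percentile in KO cells, against 1.31 to 6.09 in rescue cells. All 4 mesothelial markers were detected in KO cells, whereas Wt1 and Upk3b were undetected in rescue cells. The 4 neural markers summed to 3.68 to 7.32 in KO cultures, against 1.21 to 2.53 in rescue cultures, with Sox2 undetected in all groups. Their part in the results below was not tested.

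The deposited value table, a second source for the same arrays, disagreed with the labels on day 3. Its 4 day 3 columns each followed the scanner file of the other line at the same density (correlation across probes, after centring each probe, of 0.890 to 0.932) and ran against that of their own label (-0.689 to -0.517). The other 8 columns followed their own files (0.892 to 0.944). All values below come from the scanner files, where the day 3 cultures of Ptk2b, Fyn and the dimmer Ptk2 probe lay with the day 1 and day 2 cultures of their group. These probes were called from the same values, so this does not settle which source has the right day 3 labels. Calls from the table as labelled and from days 1 and 2 of it are given with the effects of processing.

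Between the lines, KO cells held more Ptk2b and less Fyn RNA than rescue cells at both densities, and less signal from 1 of 2 Ptk2 probes. Sparse KO cells also had less signal from both Nedd9 probes and the brighter Src probe, while of the Nedd9 probes only the dimmer was called in dense cells. In sparse cells 2 of 14 probes were higher in KO, 5 were lower and 7 did not pass (limma, adjusted p under 0.05). That is 50% of the probes, where 47% of all 25931 probes tested were called (25.7% higher and 21.3% lower). In dense cells 2 probes were higher, 3 lower and 9 not called, or 35.7%, against 57.6% of all probes (30.2% higher and 27.4% lower). The median difference of the 14 probes was -0.12 in sparse and -0.16 in dense cells, beside 0.13 and 0.10 over all probes. The groups did not overlap for 8 of 14 probes in sparse and 5 in dense cells, against 57.7% and 64.2% of all probes. The share of members called was thus near the background in sparse cells and under it in dense cells. Scaling to spike-in RNA instead of the 75th percentile would shift the sparse differences of all probes by -1.55 and the dense ones by 0.82, so directions are relative to the array. With that scaling the dense calls of Fyn and the dimmer Ptk2 probe were lost. In sparse cells the brighter Ptk2b probe went to -0.073 and the dimmer Ptk2b probe lost its call. The dense value of the dimmer Nedd9 probe went to 0.079.

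**Figure D1:**
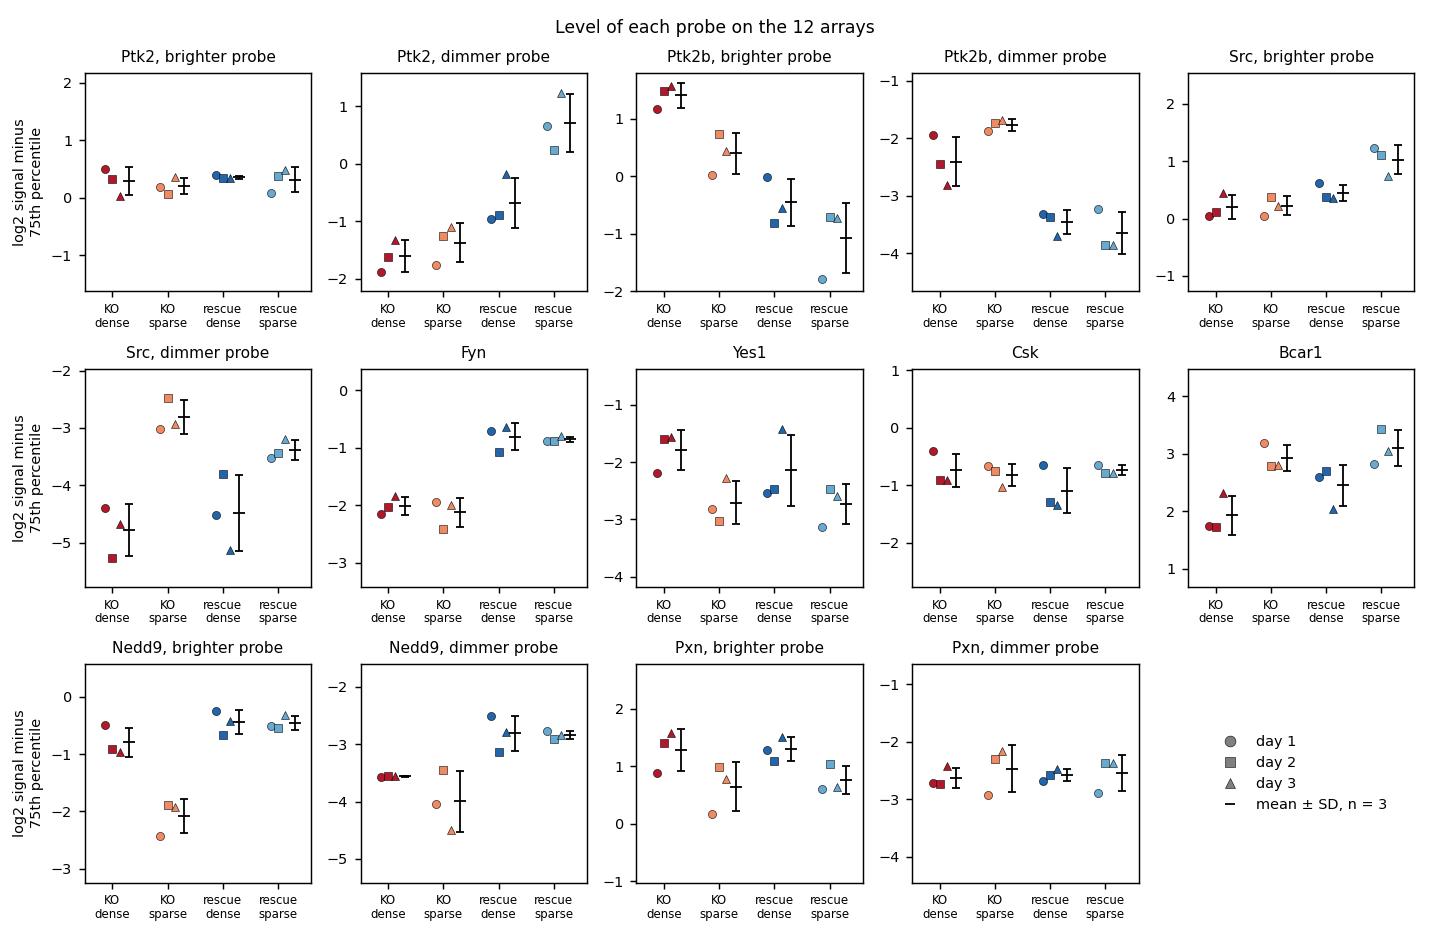
Level of each of the 14 probes on the 12 arrays, as log2 signal minus the 75th percentile of the array, by group from left to right (dense KO, sparse KO, dense rescue, sparse rescue). Every panel spans the same number of log2 units; symbols are days, and bars are the mean ± SD of 3 cultures. Ptk2b and Fyn separate the lines at both densities, and the brighter Nedd9 probe is low in sparse KO cells alone among the 4 groups.

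Ptk2 lies on chromosome 15 at 73205102 to 73423820 (RefSeq, GRCm38.p6), and its 2 probes gave different pictures. The brighter probe, A_51_P216219, stood at 0.50, 0.33 and 0.03 in dense KO cells (days 1 to 3), against 0.39, 0.34 and 0.34 in dense rescue cells. Sparse KO cells had 0.18, 0.07 and 0.36, against 0.08, 0.38 and 0.48 in sparse rescue cells. The groups overlapped at both densities. Its difference between the lines was -0.11 ± 0.18 (SE; 95% interval -0.52 to 0.29, adjusted p = 0.648) in sparse cells and -0.07 ± 0.18 (-0.48 to 0.33, adjusted p = 0.763) in dense cells.

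The dimmer Ptk2 probe, A_52_P359381, separated the lines. It read -1.88, -1.61 and -1.33 in dense KO cells, against -0.97, -0.89 and -0.17 in dense rescue cells. In sparse cells it read -1.76, -1.25 and -1.10 in KO, against 0.65, 0.23 and 1.24 in rescue. No KO culture reached a rescue culture at the same density, and the sparse rescue cultures were the highest of the 12. The difference was -2.08 ± 0.31 in sparse cells (4.22-fold lower in KO, adjusted p = 0.000167) and -0.93 ± 0.31 in dense cells (1.91-fold lower, adjusted p = 0.021). On the 1 slide that held both lines it was -1.49 in sparse and -0.72 in dense cells. Spike-in scaling put the dense value at -0.11, which was not called. With the slide as a block the dense difference was -0.53 and not called (adjusted p = 0.123), and it also lost its call without dense KO day 1 (-0.80), dense KO day 2 (-0.93) or dense rescue day 3 (-0.68). An exact permutation test over the 12 arrays, on the difference between both Ptk2 probes within an array, gave a gap of -1.41 between their line differences (two-sided p = 0.005, the smallest that 400 relabelings can give; adjusted over 20 such tests, p = 0.02). These tests exchange arrays across days. With lines or densities exchanged only within a day, an alternative added after seeing the data, p was 0.0312 here, the smallest that 64 relabelings can give. Of the 12 tests with an adjusted p under 0.05 when arrays were exchanged across days, 7 reached that p within days and none kept an adjusted p under 0.05 (lowest 0.0893). Neither the files nor the labels used here place the probes relative to the deleted part of Ptk2, so the 2 probes do not check the knockout.

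Ptk2b, on chromosome 14 at 66153257 to 66281100, encodes Pyk2, a kinase that responds to calcium signals and shares FAK's domain order. The brighter probe, A_51_P311904, stood at 1.17, 1.48 and 1.57 in dense KO cells, against -0.01, -0.81 and -0.55 in dense rescue cells. Sparse cells had 0.03, 0.74 and 0.43 in KO, against -1.78, -0.70 and -0.73 in rescue. All KO cultures lay above all rescue cultures. The difference was 1.86 ± 0.32 in dense cells (3.64-fold higher in KO, adjusted p = 0.000373) and 1.47 ± 0.32 in sparse cells (2.78-fold, adjusted p = 0.0027). Scaling to spike-in RNA, which lowers the sparse difference of every probe, put the sparse value at -0.073.

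The dimmer Ptk2b probe, A_52_P684647, read -1.95, -2.45 and -2.81 in dense KO cells, against -3.31, -3.38 and -3.70 in dense rescue cells. In sparse cells the readings were -1.87, -1.74 and -1.67 in KO, against -3.22, -3.85 and -3.86 in rescue. This probe also separated the lines at each density, by 1.06 ± 0.25 in dense (2.09-fold higher in KO, adjusted p = 0.00336) and 1.88 ± 0.25 in sparse cells (3.69-fold, adjusted p = 7.53e-05). With background modelled by normexp the dense value was 0.53 and not called (adjusted p = 0.286), and with spike-in scaling the sparse value was 0.34 and not called (adjusted p = 0.535). On the shared slide the brighter probe differed by 2.30 in dense and 1.44 in sparse cells, and the dimmer one by 0.92 and 2.11. The line difference of the brighter Ptk2b probe exceeded that of the brighter Ptk2 probe by 1.76 (exact permutation test, two-sided p = 0.005, adjusted p = 0.02; within days, p = 0.0312).

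The Src family was split. Fyn, on chromosome 10 at 39369743 to 39565381, encodes a membrane-anchored kinase that acts beside Src and Yes in integrin signalling. Its probe, A_51_P177667, printed 10 times per array, stood at -2.16, -2.04 and -1.85 in dense KO cells, against -0.71, -1.07 and -0.64 in dense rescue cells. Sparse KO cells had -1.95, -2.41 and -2.01, against -0.89, -0.88 and -0.80 in sparse rescue cells. KO cultures were lower throughout. The SD among the spots of 1 array, which is technical only, was 0.045 to 0.397. Fyn was 2.31-fold lower in dense (-1.21 ± 0.19, adjusted p = 0.000192) and 2.41-fold lower in sparse KO cells (-1.27 ± 0.19, adjusted p = 0.000202). On the shared slide the differences were -0.97 and -1.53. With normexp both kept their sign but not the call (-0.80, adjusted p = 0.0517, and -0.66, adjusted p = 0.132). Spike-in scaling also ended the dense call, without a change of sign.

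Src, the founding member of the family, lies on chromosome 2 at 157423906 to 157471838. The brighter probe, A_52_P600547, read 0.04, 0.12 and 0.44 in dense KO cells, against 0.61, 0.38 and 0.36 in dense rescue cells, and the groups overlapped (-0.25 ± 0.19, adjusted p = 0.289). In sparse cells it read 0.05, 0.38 and 0.23 in KO, against 1.22, 1.11 and 0.75 in rescue. There the groups were apart, by -0.81 ± 0.19 (1.75-fold lower in KO, adjusted p = 0.00498). The value was -0.73 on the shared slide and -0.77 with the slide as a block, which was not called (adjusted p = 0.0554).

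The dimmer Src probe, A_51_P426214, was close to background and was not well above it on 1 dense KO and 1 dense rescue array. It stood at -4.39, -5.26 and -4.66 in dense KO cells, against -4.52, -3.80 and -5.12 in dense rescue cells. In sparse cells it stood at -3.01, -2.47 and -2.93 in KO, against -3.53, -3.44 and -3.19 in rescue. The sparse groups did not overlap, with KO above rescue, but the difference was not called (0.58 ± 0.33, adjusted p = 0.169), and the dense one was -0.29 ± 0.33 (adjusted p = 0.468).

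Yes1, on chromosome 5 at 32611171 to 32687066, encodes the third broadly expressed kinase of the family. Its probe, A_51_P469480, read -2.20, -1.60 and -1.56 in dense KO cells, against -2.54, -2.47 and -1.43 in dense rescue cells. Sparse cells gave -2.81, -3.02 and -2.29 in KO, against -3.12, -2.47 and -2.59 in rescue. The lines overlapped at both densities, with differences of 0.36 ± 0.33 (95% interval -0.37 to 1.08, adjusted p = 0.377) in dense and 0.02 ± 0.33 (-0.70 to 0.75, adjusted p = 0.963) in sparse cells. Fyn fell relative to Yes1 by 1.43 and relative to the brighter Src probe by 0.71 between the lines (exact permutation tests, two-sided, adjusted p = 0.02 and 0.0286; within days, p = 0.0312 and 0.0625).

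Csk, on chromosome 9 at 57626646 to 57653631, encodes the kinase that restrains the family. Its probe, A_52_P397204, read -0.40, -0.90 and -0.90 in dense KO cells, against -0.65, -1.29 and -1.34 in dense rescue cells. Sparse KO cells had -0.67, -0.75 and -1.04, against -0.64, -0.78 and -0.78 in sparse rescue cells. The differences of 0.35 ± 0.23 (95% interval -0.14 to 0.85, adjusted p = 0.203) in dense and -0.08 ± 0.23 (-0.58 to 0.42, adjusted p = 0.79) in sparse cells did not pass. Without dense rescue day 1 the dense value was 0.58 and called (adjusted p = 0.048).

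The 250 bases before the RefSeq start (GRCm38.p6) are shown for Src, Fyn and Nedd9, the members called lower in sparse KO cells that the promoter table lists. The windows are chr2:157424043-157424292 on the plus strand for Src, chr10:39369549-39369798 on the plus strand for Fyn, and chr13:41359002-41359251 on the minus strand for Nedd9, and for all 3 the start used lies inside the annotated gene span. Capitals mark the GC box GGGCGG and the CCAAT box CCAAT on either strand.
Src: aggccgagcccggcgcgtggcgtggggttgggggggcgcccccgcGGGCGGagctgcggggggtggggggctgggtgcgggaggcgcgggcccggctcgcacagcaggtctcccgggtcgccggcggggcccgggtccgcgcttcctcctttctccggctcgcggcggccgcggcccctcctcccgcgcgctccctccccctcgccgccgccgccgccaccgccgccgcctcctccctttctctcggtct
Fyn: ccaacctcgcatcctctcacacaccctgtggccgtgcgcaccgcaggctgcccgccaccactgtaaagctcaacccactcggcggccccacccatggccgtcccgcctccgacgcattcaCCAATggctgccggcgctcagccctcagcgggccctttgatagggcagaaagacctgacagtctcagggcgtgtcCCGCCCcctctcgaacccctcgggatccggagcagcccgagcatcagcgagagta
Nedd9: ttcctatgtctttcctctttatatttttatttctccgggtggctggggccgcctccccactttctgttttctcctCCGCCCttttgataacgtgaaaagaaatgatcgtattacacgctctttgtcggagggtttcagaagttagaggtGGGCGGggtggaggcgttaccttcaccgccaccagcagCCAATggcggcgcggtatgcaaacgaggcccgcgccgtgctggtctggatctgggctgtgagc
Src had 1 GC box, Fyn 1 GC box and 1 CCAAT box, and Nedd9 2 GC boxes and 1 CCAAT box, with no overlap among them. Among 32851 promoters of the same length, 32.7% held a GC box and 33.8% a CCAAT box. Members not called between the lines held them too: Yes1 had 2 GC boxes, and Bcar1 had GC boxes in both its windows and 1 CCAAT box. Csk had neither box. A link between these boxes and the levels was not tested. The letters of the TEAD motif (GGAATG) and the AP-1 motif (TGANTCA) were found on neither strand of the 3 windows, and in 12.6% and 6.75% of all promoters.

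Among the CAS scaffolds, both Nedd9 probes were called lower in sparse KO cells and Bcar1 was not called at either density. The line difference was -1.62 for the brighter Nedd9 probe and -0.16 for Bcar1 in sparse cells, against -0.35 and -0.52 in dense cells. Averaged over the densities, the gap between them was -0.64 (exact permutation test, two-sided p = 0.11, adjusted p = 0.138). That average joins gaps of opposite sign, so it does not compare the 2 genes within a density. Nedd9 (HEF1), on chromosome 13 at 41309916 to 41487362, binds FAK and Src and carries tyrosines that, once phosphorylated, recruit Crk. The brighter probe, A_52_P491544, stood at -0.50, -0.92 and -0.97 in dense KO cells, against -0.26, -0.66 and -0.42 in dense rescue cells. In sparse cells it stood at -2.42, -1.89 and -1.92 in KO, against -0.51, -0.55 and -0.31 in rescue. The sparse groups were far apart and the dense groups overlapped. The line difference was -0.35 ± 0.21 in dense cells (adjusted p = 0.175) and -1.62 ± 0.21 in sparse cells (3.07-fold lower in KO, adjusted p = 6.19e-05; -1.34 on the shared slide).

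The dimmer Nedd9 probe, A_52_P418884, read -3.57, -3.56 and -3.56 in dense KO cells, against -2.52, -3.14 and -2.78 in dense rescue cells. In sparse cells it read -4.05, -3.44 and -4.50 in KO, against -2.78, -2.92 and -2.84 in rescue. Its signal in sparse KO cells was low, at 17.8, 63.2 and 20.3 units, where the array medians were 18.8, 56.7 and 28.7. It was well above background on all 12 arrays. KO cultures were lower at both densities, by 0.75 in dense (-0.75 ± 0.25, adjusted p = 0.0249) and 1.16 in sparse cells (-1.16 ± 0.25, adjusted p = 0.00284), though scaling to spike-in RNA put the dense value at 0.079. With normexp neither was called (-0.23 in dense, adjusted p = 0.684, and -0.12 in sparse cells, adjusted p = 0.811). With the slide as a block neither was called (-0.27, adjusted p = 0.543, and -0.68, adjusted p = 0.164). Days 1 and 2 of the deposited table did not call the dense value (-0.43, adjusted p = 0.206), and without any 1 of dense KO days 1, 2 and 3 or dense rescue days 1 and 3 the dense value of -0.75 to -0.60 was not called.

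Bcar1, on chromosome 8 at 111710474 to 111743849, encodes p130Cas, the CAS protein of most fibroblasts. Its probe, A_51_P375227, stood at 1.74, 1.73 and 2.32 in dense KO cells, against 2.60, 2.70 and 2.05 in dense rescue cells. Sparse cells had 3.20, 2.80 and 2.82 in KO, against 2.82, 3.43 and 3.05 in rescue. The lines overlapped at each density, and the differences of -0.52 ± 0.25 (adjusted p = 0.101) in dense and -0.16 ± 0.25 (95% interval -0.72 to 0.39, adjusted p = 0.624) in sparse cells did not pass. The dense value was called without dense KO day 3 (-0.71, adjusted p = 0.0441) or dense rescue day 3 (-0.72, adjusted p = 0.038). Days 1 and 2 of the deposited table also called it (adjusted p = 0.0483).

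Pxn, on chromosome 5 at 115491970 to 115555987, encodes the adhesion scaffold paxillin. Its brighter probe, A_51_P214859, read 0.88, 1.40 and 1.59 in dense KO cells, against 1.29, 1.10 and 1.52 in dense rescue cells. Sparse cells gave 0.17, 0.98 and 0.78 in KO, against 0.61, 1.04 and 0.64 in rescue. The dimmer probe, A_52_P532973, ranged from -2.73 to -2.43 in dense KO, -2.93 to -2.17 in sparse KO, -2.69 to -2.46 in dense rescue and -2.90 to -2.37 in sparse rescue cells. Neither probe was called between the lines, with differences from -0.12 to 0.07 and 95% intervals that stayed within -0.69 and 0.59.

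**Figure D2:**
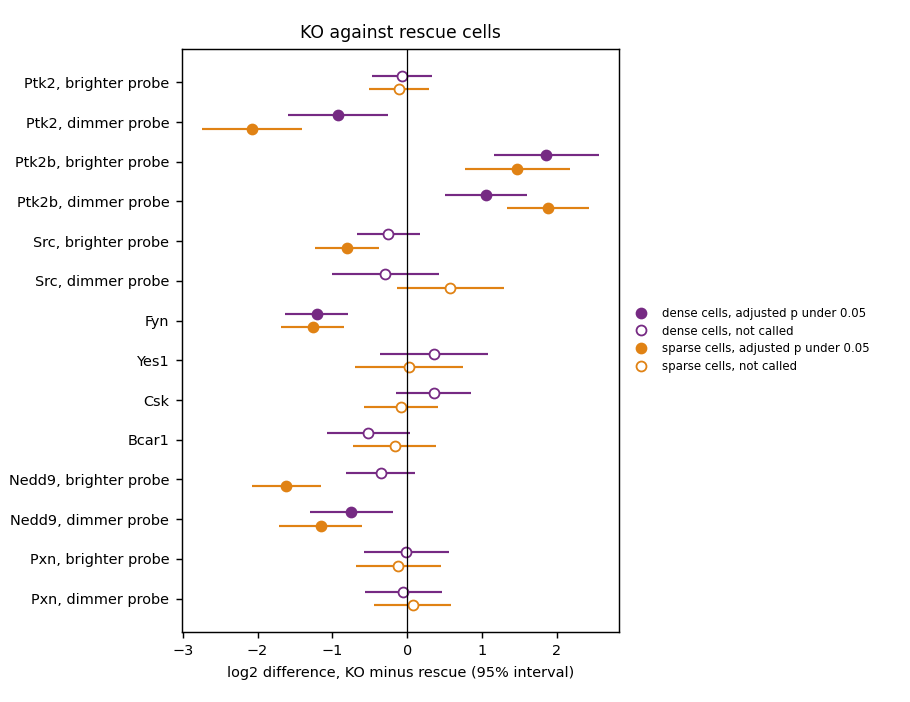
Log2 difference, KO minus rescue, of each probe in dense and in sparse cells, with its 95% interval from the fit; filled points had an adjusted p under 0.05. Both Ptk2b probes lie above 0 and Fyn, the dimmer Ptk2 probe and the dimmer Nedd9 probe below 0 at both densities, although with spike-in scaling Ptk2b A_51_P311904 in sparse cells (-0.073) and Nedd9 A_52_P418884 in dense cells (0.079) change sign. That scaling also ends the dense calls of Fyn and the dimmer Ptk2 probe and the sparse call of the dimmer Ptk2b probe.

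Between densities, the called changes were higher signal of 1 of 2 Nedd9 probes and lower signal of Bcar1 and of 1 of 2 Src probes in dense KO cells, and lower signal of 1 of 2 Ptk2 probes and of both Src probes in dense rescue cells. These directions are also relative to the array: spike-in scaling would shift all probes by 3.10 in KO and 0.72 in rescue cells. The comparison asks which of these genes depend on seeding density within a line. In KO cells 1 of 14 probes was higher in dense than in sparse cultures, 2 were lower and 11 were not called, or 21.4%, against 12% of all probes tested (4.22% higher and 7.75% lower). In rescue cells none was higher, 3 were lower and 11 not called, again 21.4%, against 35.2% of all probes (16.4% higher and 18.8% lower). Groups did not overlap for 6 of 14 probes in KO and 5 in rescue cells, against 38.3% and 47.7% of all probes. The median difference of the 14 probes was 0.08 in KO and 0.02 in rescue cells, beside -0.09 and -0.08 over all probes.

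In KO cells the brighter Nedd9 probe was 2.44-fold higher in dense than in sparse cultures (1.28 ± 0.21, adjusted p = 0.00419), and the dense cultures lay above the sparse ones on all 3 days. With normexp the value was 0.56 and not called (adjusted p = 0.529). The dimmer Nedd9 probe differed by 0.44 ± 0.25 (adjusted p = 0.287), higher in dense cultures on 2 of 3 days. Bcar1 was 2.01-fold lower in dense KO cultures (-1.0 ± 0.25, adjusted p = 0.0263), with no overlap, although spike-in scaling turned this to 2.09. Its call was lost without sparse KO day 1 (-0.87) or day 3 (-1.07) and without dense KO day 1 (-0.91) or day 2 (-0.90). The dimmer Src probe was 3.91-fold lower in dense KO cultures (-1.97 ± 0.33, adjusted p = 0.00441; 1.13 with spike-in scaling), with 2 of 3 dense arrays well above background. With normexp it was -0.67 and not called (adjusted p = 0.847), and days 1 and 2 of the deposited table gave -1.03 without a call (adjusted p = 0.0684). The brighter Src probe differed by -0.02 ± 0.19 (95% interval -0.44 to 0.40, adjusted p = 0.961), and over both lines the density responses of the dimmer and the brighter Src probe differed by -1.23 (exact permutation test, two-sided p = 0.015, adjusted p = 0.0333; within days, p = 0.0625). Averaged over the lines, the density responses of the brighter Nedd9 probe and Bcar1 differed by 1.48 (exact permutation test, two-sided p = 0.01, adjusted p = 0.0286; within days, p = 0.0312).

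In rescue cells the dimmer Ptk2 probe was 2.61-fold lower in dense than in sparse cultures (-1.38 ± 0.31, adjusted p = 0.00462), with no overlap. Its counterpart, the brighter probe, differed by 0.04 ± 0.18 (95% interval -0.36 to 0.45, adjusted p = 0.879), and over both lines the density responses of these probes differed by -0.87 (exact permutation test, two-sided p = 0.025, adjusted p = 0.0417; within days, p = 0.0625). Both Src probes were lower in dense rescue cultures, the brighter by -0.57 ± 0.19 (1.49-fold, adjusted p = 0.0379) and the dimmer by -1.09 ± 0.33 (2.13-fold, adjusted p = 0.0225, with 2 of 3 dense arrays well above background), and with spike-in scaling the brighter was at 0.15. The brighter Src call was lost without any 1 of sparse KO day 3, dense KO day 2, sparse rescue days 1 and 2 or dense rescue days 2 and 3 (-0.57 to -0.48). The dimmer one was lost without sparse rescue day 3 (-1.0), dense rescue day 1 (-1.07) or dense rescue day 3 (-0.77), the array not well above background, and with normexp (-0.52, adjusted p = 0.699). Bcar1 was also lower in every dense rescue culture than in any sparse one, by -0.65 ± 0.25, without passing (adjusted p = 0.0667). It was called among only the probes well above background on all arrays (adjusted p = 0.0469).

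**Figure D3:**
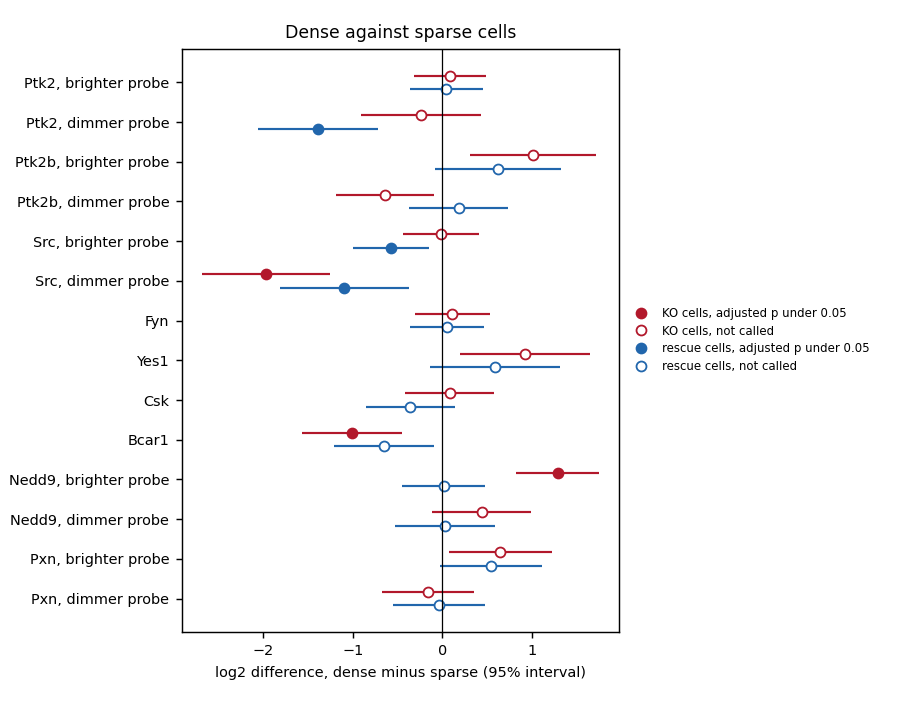
Log2 difference, dense minus sparse, of each probe in KO and in rescue cells, with its 95% interval from the fit; filled points had an adjusted p under 0.05. The brighter Nedd9 probe is the only called probe above 0, and with spike-in scaling the called values of Src and Bcar1 in KO cells (1.13 and 2.09) and of the brighter Src probe in rescue cells (0.15) lie above 0 too.

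Several members did not pass for density. The brighter Ptk2b probe was 1.01 ± 0.32 higher in dense KO cultures with no overlap (adjusted p = 0.0634), and 0.62 ± 0.32 in rescue cells (adjusted p = 0.159). It was called in KO cells without sparse rescue day 1 (adjusted p = 0.032), with median centring, and among only the probes well above background on all arrays. The dimmer Ptk2b probe went the other way in KO cells (-0.64 ± 0.25, adjusted p = 0.121), and over both lines these probes' density responses differed by 1.04 (the dimmer minus the brighter, -1.04; exact permutation test, two-sided, adjusted p = 0.0417; within days, p = 0.0938). Yes1 differed by 0.92 ± 0.33 in KO cells (adjusted p = 0.0953) and 0.58 ± 0.33 in rescue cells (adjusted p = 0.197), and the KO value was called with the day as a replicate block (adjusted p = 0.0365). The brighter Pxn probe differed by 0.65 ± 0.26 in KO cells (adjusted p = 0.131) and 0.54 ± 0.26 in rescue cells (adjusted p = 0.132), against -0.16 ± 0.23 and -0.04 ± 0.23 for its dimmer probe, and over both lines the responses of these probes differed by -0.69 (exact permutation test, two-sided p = 0.005, adjusted p = 0.02; within days, p = 0.0312). Fyn differed by 0.11 ± 0.19 in KO cells (95% interval -0.31 to 0.52, adjusted p = 0.759) and 0.05 ± 0.19 in rescue cells (-0.37 to 0.47, adjusted p = 0.861).

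The density response of 1 probe differed between the lines. For the brighter Nedd9 probe the response was 1.28 ± 0.21 in KO cells, against 0.01 ± 0.21 in rescue cells, and the interaction was 1.27 ± 0.30 (adjusted p = 0.0144). It was 1.09 on the slide that held both lines. The call was lost with normexp (0.42, adjusted p = 0.752) and in days 1 and 2 of the deposited table (1.17, adjusted p = 0.0648). Of the 14 probes this was the only one called (7.14%), against 17.7% of all probes tested (8.54% with a positive and 9.11% with a negative interaction). The dimmer Nedd9 probe gave 0.41 ± 0.36 (adjusted p = 0.457). For the dimmer Ptk2 probe, with a response of -0.24 ± 0.31 in KO and -1.38 ± 0.31 in rescue cells, the interaction of 1.15 ± 0.43 was not called (adjusted p = 0.0895), but it was with the day as a replicate block (adjusted p = 0.0239), with the slide as a block (adjusted p = 0.0225), in days 1 and 2 of the deposited table (1.09, adjusted p = 0.0444) and without dense rescue day 3 (1.40, adjusted p = 0.047).

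Beyond the members, 3 lists of genes of the same module were counted, with 1 probe per gene. The list of Src family kinases and their regulators had 9 genes that passed the filter and were tested. In dense cells 2 were higher in KO, 4 lower and 3 not called, and in sparse cells 2 were higher, 2 lower and 5 not called. Over all 12438 genes tested, 60.4% were called in dense and 47.4% in sparse cells. The median difference of the 9 genes was -0.16 in dense and -0.24 in sparse cells, beside 0.077 and 0.025 over all genes. Lyn, a Src family kinase, was well above background on all rescue arrays and on no KO array. It was at least 9.31-fold lower in dense and at least 6.91-fold lower in sparse KO cells (adjusted p = 3.36e-08 and 1.26e-07). Lck, the family member best known from T cells, was higher in KO by 2.90 ± 0.33 in dense and 2.23 ± 0.33 in sparse cells (adjusted p = 1.48e-05 and 0.000188), with 2 of 3 rescue arrays well above background at each density. Pag1, the membrane adaptor that recruits Csk, was at least 2.54-fold higher in dense and at least 2.32-fold higher in sparse KO cells (adjusted p = 0.000476 and 0.0102), but its fitted sparse difference of 1.34 is smaller than the shift by spike-in scaling, which turns its sign.

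Of 5 paralogs and partners of CAS and paxillin, 4 were tested and Tgfb1i1 had no named probe. In dense cells 1 was higher in KO, 1 lower and 2 not called, and in sparse cells 1 was higher, 2 lower and 1 not called, with a median of 0.50 and -0.24. The share called over all genes was 60.4% in dense and 47.4% in sparse cells. Sh2d3c, an adaptor that binds CAS proteins, stood at -1.26, -0.98 and -0.66 in dense KO cells, against -4.41, -4.72 and -4.30 in dense rescue cells. Its difference was 3.50 ± 0.33 in dense and 3.57 ± 0.33 in sparse cells (adjusted p = 3e-06 and 3.66e-06). Bcar3, which binds p130Cas in the same way, had 0.82, 1.17 and 1.23 in sparse KO cells, against 2.08, 2.33 and 2.55 in sparse rescue cells. It was lower in sparse KO cells (-1.24 ± 0.29, adjusted p = 0.00415) and was higher in dense than in sparse KO cultures (1.80 ± 0.29, adjusted p = 0.00394), with an interaction of 1.94 ± 0.41 (adjusted p = 0.00886). Lpxn, the paxillin paralog leupaxin, was lower in KO by 0.89 in dense (-0.89 ± 0.29, adjusted p = 0.0206) and 0.79 in sparse cells (-0.79 ± 0.29, adjusted p = 0.0423).

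Of 24 adaptors and GTPase regulators, 23 were tested (Arhgef6 did not pass the filter). In dense cells 5 were higher in KO, 8 lower and 10 not called, and in sparse cells 10 were higher, 4 lower and 9 not called, with a median of -0.17 and -0.10. Of all genes tested, 60.4% were called in dense and 47.4% in sparse cells. Pak1, a kinase activated by Rac, read -3.00, -3.27 and -2.89 in dense KO cells, against -0.11, -0.06 and 0.01 in dense rescue cells, and was lower by -3.00 ± 0.19 (adjusted p = 8.27e-08). In sparse cells it read -3.26, -3.05 and -2.74 in KO, against 0.34, 0.21 and 0.48 in rescue, lower by -3.36 ± 0.19 (adjusted p = 3.8e-08). Asap1, an Arf GTPase-activating protein that binds FAK and Src, was lower in dense and sparse KO cells (-1.98 ± 0.23 and -1.62 ± 0.23, adjusted p = 1.7e-05 and 0.000135). Elmo1, which works with Dock1 as an exchange factor for Rac, was lower in dense KO cells (-2.87 ± 0.35, adjusted p = 2.25e-05, with 2 of 3 dense KO arrays well above background) and at least 3.69-fold lower in sparse KO cells (adjusted p = 4.49e-05). Arhgap26, a GTPase-activating protein that binds FAK, was higher in sparse KO cells (2.31 ± 0.44, adjusted p = 0.00104), where 2 of 3 sparse rescue arrays detected it.

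For density, none of the 9 Src-related genes was called in KO cells, while in rescue cells 2 were higher, 1 was lower and 6 did not pass. One of the higher ones was Ptpra, a phosphatase that activates Src by removing its tail phosphate (0.87 ± 0.24, adjusted p = 0.0161). Of the 4 CAS and paxillin relatives only Bcar3 was called in KO cells and none in rescue cells. Of the 23 adaptors and regulators, 1 was higher in dense KO cultures, 4 were lower and 18 were not called, against 10.5% of all genes called. In rescue cells 7 were higher, 2 lower and 14 not called, against 38.1% of all genes. Arhgef28, an exchange factor that binds FAK, was higher in dense rescue cultures (2.22 ± 0.30, adjusted p = 0.000235), as was Nck2, an adaptor that links adhesions to actin assembly (1.84 ± 0.15, adjusted p = 1.11e-05). Their interactions were -1.84 ± 0.43 and -1.37 ± 0.22 (adjusted p = 0.0136 and 0.00197).

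**Figure D4:**
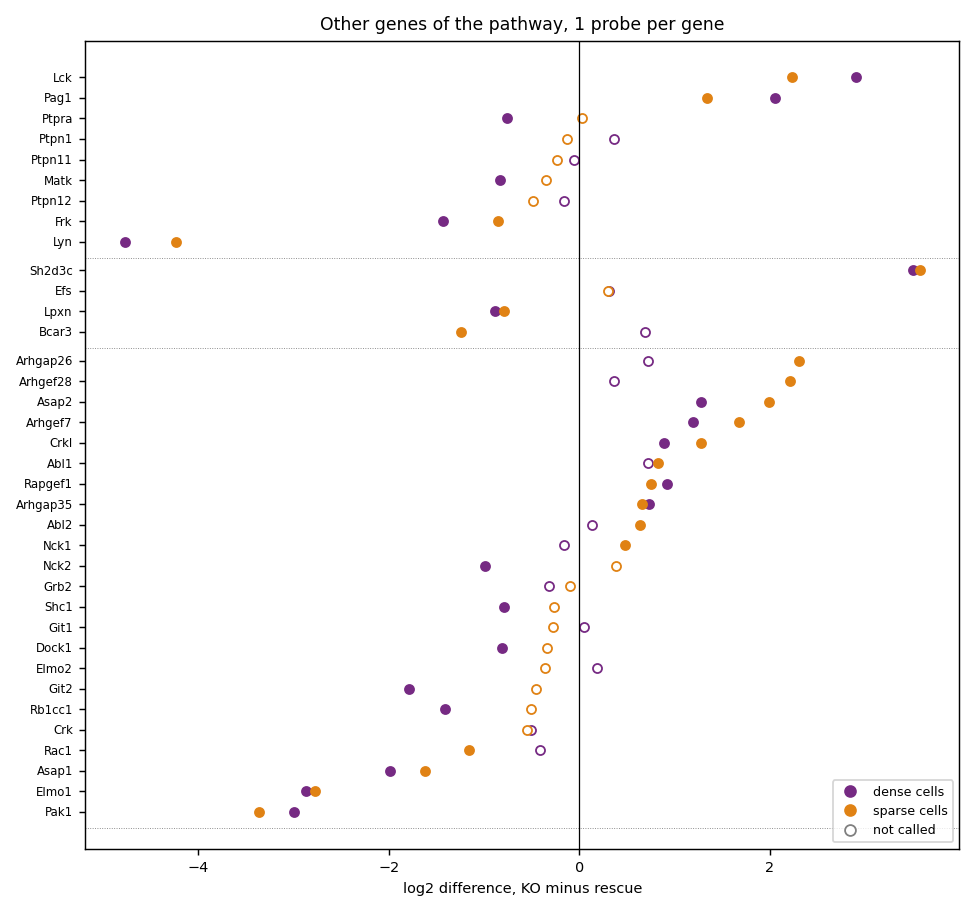
Log2 difference, KO minus rescue, of the 36 tested genes of the 3 lists, in dense and in sparse cells; dotted lines part the Src family list (top), the CAS and paxillin list and the adaptors (bottom), and open points were not called. Lyn, Pak1 and Elmo1 lie farthest below 0 and Sh2d3c farthest above it at both densities; values of Lyn, Elmo1 and Pag1 on arrays not well above background are bounds only.

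The probes of other genes whose pattern over the 12 arrays was nearest to that of the FAK and Pyk2 probes were ranked by the root mean square difference of levels after each probe was centred, among 18027 named probes. Nearest to the dimmer Ptk2 probe were Pmm2 (0.228), Tpbg (0.264) and Acot10 (0.285), where that probe's own SD over the arrays was 1.0. Nearest to the brighter Ptk2b probe were Zbed4 (0.187), Atf2 (0.281) and Hmgxb4 (0.314), against an SD of 1.04. The dimmer Ptk2b probe had Zfp987 (0.211), Ipo8 (0.225) and Rhou (0.232) as its nearest, against an SD of 0.85. The brighter Ptk2 probe hardly varied (SD 0.16), so that its nearest probes, Ints9, Clint1 and Yme1l1 (0.120 to 0.138), share with it little more than a flat level.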

How the data were processed

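Total RNA (100 ng) of 12 cultures was labelled with Cy3 and hybridised to Agilent one-colour mouse arrays, 1 per culture. Per the file headers, the deposited scanner files hold spot intensity from Feature Extraction 10.5.1.1 (Agilent Feature Extraction 10 per the submitters' processing notes). The processed signal there has its background subtracted, with no step between arrays. The deposited log2 table comes without a stated normalization, centring or filter in the sources used here.

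Flagged spots (79 to 265 per array) were dropped, repeated spots averaged on the log2 scale and the array's 75th percentile subtracted. A probe was tested if, in 1 group or more, all 3 arrays had it well above background. The test was limma (3.58.1, under R 4.3.3, with data.table, version 1.17.8, as the reader), with 4 group means and 8 residual plus 3.54 prior degrees of freedom. P-values were adjusted by Benjamini-Hochberg over 25931 probes in each of 5 comparisons, and the sparse line comparison's fit was tested on simulated data. It recovered 22 of 100 planted changes of 1 log2 unit and 86 of 100 of 2 units, with 11 false calls. Far fewer of the 25712 simulated probes were changed than were called in the data, so these shares need not hold there. The brightest tested probe stood for each pathway gene. Lower bounds set the brighter group's mean against the dimmer group's mean of the higher of 2 signals, the array's lowest signal well above background or the probe's own. These bounds use group means only and leave out the spread among arrays, so they are not confidence limits. Permutation tests relabelled arrays within the other factor (400 relabelings) and were adjusted over 20 tests. They did not keep the pairing by day; exchange within days (64 relabelings) was added after seeing the data. A rank test of 3 against 3 cannot go below 0.1.

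The replicate number is the experimental day in the labels, which pairs the arrays. Of 18 same-day pairs, 12 had deviations correlated above 0.1 (-0.029 to 0.264). Of 5 slides, 1 held both lines, on day 2; otherwise slide and line cannot be told apart. Gene names, coordinates and promoters come from RefSeq tables of GRCm38.p6, and 24375 of 41174 probes had 1 gene. The members and lists were chosen with earlier results of these data known. All probes of members were named, and from each list at most the 3 called genes of largest change per comparison were eligible.

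Alternatives were normexp on the median signal (offset 50, as the files hold no mean signal), quantile, median and spike-in scaling (6 spike-in probes), filters, 1 probe per gene, the deposited table, flagged spots kept, day and slide blocks and leaving out each array.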

Additional observations from a re-analysis of the deposited data

Results flagged for a closer look

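The response of the brighter Nedd9 probe to density differed between the lines by the test of that difference itself. The interaction was 1.27 ± 0.30 on the log2 scale (limma, adjusted p = 0.0144). Dense cultures were higher than sparse ones on 3 of 3 days in KO cells, against 1 of 3 days in rescue cells. The value was 1.09 on the slide with both lines, 1.27 with the slide as a block (adjusted p = 0.0388), and 0.42 with normexp, where it was not called (adjusted p = 0.752). Days 1 and 2 of the deposited table gave 1.17, also not called (adjusted p = 0.0648). The dimmer Nedd9 probe gave 0.41 ± 0.36 and was not called.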

How the results depend on the processing

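Counts of calls are given in one order throughout: KO minus rescue in sparse cells, the same in dense cells, dense minus sparse in KO cells, the same in rescue cells, and the interaction. The main counts were 7, 5, 3, 3 and 1 of 14 member probes and 12183, 14946, 3104, 9119 and 4577 of all probes. Where a member count stands without the all-probe count of its comparison, it does not show whether members moved more than all probes. Of the 19 member calls, 6 kept their direction and call under 10 alternatives and all leave-outs (spike-in scaling and the table as labelled are apart): the dimmer Ptk2 probe and both Ptk2b probes in sparse cells, the brighter Ptk2b probe in dense cells, the brighter Nedd9 probe in sparse cells, and the dimmer Ptk2 probe between densities in rescue cells. Quantile normalization and keeping flagged spots changed no member call.

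With normexp the member counts were 1 in dense line, 0 in KO density, 1 in rescue density and 0 in the interaction, and all probes called were 4965, 7776, 39, 3004 and 517; the cause was not tested. It ended 12 member calls: Fyn in both line comparisons, Nedd9 A_52_P418884 in both (-0.12 and -0.23), Ptk2 A_52_P359381 (-0.35) and Ptk2b A_52_P684647 (0.53) in dense line, Src A_51_P426214 in both densities (-0.67 and -0.52), Bcar1 (-0.76) and Nedd9 A_52_P491544 (0.56) in KO density, Src A_52_P600547 (-0.56) in rescue density, and the Nedd9 interaction (0.42). Median centring and testing without a filter each ended 2, Bcar1 in KO density and Src A_52_P600547 in rescue density. Median centring also called Ptk2b A_51_P311904 in KO density, as did testing only the probes well above background on all arrays. That stricter filter called Bcar1 in rescue density too. The deposited table as labelled called 0 member probes and 0 of all probes in every comparison, where its day 3 columns follow the other line. Its days 1 and 2, an alternative chosen after seeing the data, called 1 member probe in KO density, 1 in rescue density and 1 in the interaction, the dimmer Ptk2 probe in place of the brighter Nedd9 probe, and 1342, 5794 and 1826 of all probes in the last 3 comparisons. With 1 probe per gene fewer probes were tested, and 4, 2 and 1 member probes were called in sparse line, dense line and rescue density, with 6069, 7667, 1358, 4978 and 2579 of all. The day as a replicate block called 2 member probes in the interaction and, beside Yes1 in KO density, changed no other member call. The slide as a block called 3 member probes in dense line and 2 in the interaction, and 8054 of all probes in sparse line. In that fit the line difference averaged over the densities comes from the 1 slide with both lines. How it differs between densities comes from all slides.

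Scaling to 6 spike-in probes moved the median of all probes by -1.55, 0.82, 3.10, 0.72 and 2.37, and every member by the same amount; the cause was not tested. It called 11 member probes in sparse line, 14 in KO density, 0 in rescue density and 14 in the interaction, and 25754 and 21186 of all probes in KO density and the interaction. Among values called in at least 1 of both settings, it turned the sign in sparse line of Ptk2b A_51_P311904 (-0.073), Yes1 (-1.53) and Pxn A_52_P532973 (-1.47), and in dense line of Nedd9 A_52_P418884 (0.079). In KO density it turned Ptk2 A_52_P359381 (2.86), Ptk2b A_52_P684647 (2.45), Src A_52_P600547 (3.08), Src A_51_P426214 (1.13), Bcar1 (2.09) and Pxn A_52_P532973 (2.94), and in rescue density Src A_52_P600547 (0.15). In the interaction it turned Ptk2b A_52_P684647 (1.55), Src A_51_P426214 (1.50), Bcar1 (2.02) and Pxn A_52_P532973 (2.25). A further 11 values that neither setting called also changed sign. Line calls that ended without a change of sign were Fyn and Ptk2 A_52_P359381 (-0.11) in dense line and Ptk2b A_52_P684647 in sparse line. Median centring moved the median of all probes by -0.30 in sparse line and 0.25 in KO density and the interaction, and quantile normalization by 0.11 in KO density.

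Leaving out each array gave 7 to 7, 3 to 5, 2 to 4, 1 to 3 and 1 to 2 member calls, and 10512 to 12548, 13487 to 15382, 1189 to 3555, 7640 to 9525 and 3217 to 4816 of all. All-probe calls in KO density were 1761 without sparse KO day 1, 1546 without sparse KO day 3 and 1189 without dense KO day 2. Member calls were 3 in dense line without dense KO day 1 or day 2, 1 in rescue density without dense rescue day 3, and 2 in the interaction without dense KO day 1 or dense rescue day 3. Of 360 counts over the 3 pathway lists under alternatives, 300 stayed within 1.5 times the main count and 60 did not. Signal over background limits the dimmer Src probe most.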
